A study of Arabidopsis thaliana with 12 samples.

Results

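SOB3-GFP binding at dawn (ZT24, the end of the night) was compared with binding in the middle of the light period (ZT4). The 3 ZT24 and the 3 ZT4 ChIP-seq peak lists were taken, and peaks that overlapped by at least 1 bp over these 6 lists were merged into sites. This gave 27443 sites, against 28285 sites when the 3 ZT9 lists were merged in as well, and it used 6 of the 12 samples of the series. A peak was present in all 6 lists at 14802 sites. It was present in all 3 ZT24 lists and no ZT4 list at 194 sites, called gained here, and in all 3 ZT4 lists and no ZT24 list at 262 sites, called lost.

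All 6 samples were whole Arabidopsis thaliana seedlings of the Columbia ecotype (Col-0). They carried the sob3-4 mutation and a fusion of SOB3 to GFP that was driven by the SOB3 promoter, so binding was read through the tagged protein where that promoter is active, averaged over all tissues. Seedlings were grown at 22 °C in short days with 8 h of light and 16 h of darkness. The ZT24 seedlings were 6 days old, and their harvest time is also labelled as ZT0, while the ZT4 seedlings were 5 days old. Time of day and a difference of 1 day in age therefore cannot be told apart. Chromatin was precipitated with an antibody to GFP in 3 biological replicates per time, and 1 input was sequenced per time. The ZT9 lists, from the early night, are used only as background, and plants that lack GFP were not analysed here.

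SOB3 is also named AHL29 and belongs to the AHL family of AT-hook nuclear proteins. Proteins of this family bind AT-rich DNA in the minor groove through their AT-hook, associate with other nuclear proteins and with chromatin, and restrain elongation of the hypocotyl, the seedling stem. They oppose growth-promoting factors such as the PHYTOCHROME-INTERACTING FACTORs (PIFs), bHLH proteins that bind E-box sequences, and interact with TCP proteins, whose preferred sites contain GC-rich cores. In short days the hypocotyl elongates mainly near the end of the night, when PIF proteins escape repression by phytochromes.

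Sequence at the peak centre is printed for 7 sites that carry the comparison: 3 with more ChIP fragments at ZT24, 2 with fewer, 1 gained and 1 lost. They were chosen after their values were seen, among sites whose summit window lies mostly outside annotated exons, and each is the part of the 300 bp around the summit of the strongest peak that does so. Letters are the plus strand of TAIR10, read from RefSeq. Capitals mark matches on either strand to the motif words searched, namely the words GGACCA or GGCCCA or GGTCCA (TCP-like), the words CACACG or CACATG or CACGCG or CACGTG (PIF-like), and the words AAATAAAA or AAATAATA or ATATAAAA or ATATAATA (AT-rich); no word of one group is a word of another.
AT3G17580 (more fragments at ZT24), chr3:6014962-6015183: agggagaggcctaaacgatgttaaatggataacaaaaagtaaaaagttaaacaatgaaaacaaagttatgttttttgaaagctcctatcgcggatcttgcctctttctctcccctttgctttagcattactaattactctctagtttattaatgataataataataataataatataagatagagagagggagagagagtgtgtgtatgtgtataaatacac
IVD (more fragments at ZT24), chr3:16625128-16625427: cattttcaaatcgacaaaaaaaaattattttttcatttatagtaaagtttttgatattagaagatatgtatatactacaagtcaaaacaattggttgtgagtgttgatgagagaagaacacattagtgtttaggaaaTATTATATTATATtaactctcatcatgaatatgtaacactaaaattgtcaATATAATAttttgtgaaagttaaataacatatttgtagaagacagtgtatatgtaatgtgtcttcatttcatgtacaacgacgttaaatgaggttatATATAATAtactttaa
AHL20 (more fragments at ZT24), chr4:8323824-8324123: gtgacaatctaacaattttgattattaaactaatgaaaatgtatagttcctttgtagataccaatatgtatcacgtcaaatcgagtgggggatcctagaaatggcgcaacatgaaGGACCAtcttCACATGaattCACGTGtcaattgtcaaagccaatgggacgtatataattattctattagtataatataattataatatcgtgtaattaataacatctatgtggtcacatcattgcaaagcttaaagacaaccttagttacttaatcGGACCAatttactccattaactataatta
AT2G40460 (fewer fragments at ZT24), chr2:16896629-16896906: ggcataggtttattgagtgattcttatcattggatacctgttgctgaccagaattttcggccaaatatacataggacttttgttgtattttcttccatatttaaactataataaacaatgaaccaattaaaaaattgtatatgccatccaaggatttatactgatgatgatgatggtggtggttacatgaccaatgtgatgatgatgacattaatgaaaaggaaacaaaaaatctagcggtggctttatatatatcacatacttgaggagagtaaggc
GA2OX1 distal (fewer fragments at ZT24), chr1:29514202-29514501: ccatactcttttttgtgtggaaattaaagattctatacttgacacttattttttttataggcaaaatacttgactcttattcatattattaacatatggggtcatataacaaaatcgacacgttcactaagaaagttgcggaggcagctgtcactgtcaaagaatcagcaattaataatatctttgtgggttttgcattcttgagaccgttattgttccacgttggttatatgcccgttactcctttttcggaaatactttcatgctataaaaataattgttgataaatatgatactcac
GLX2-4 (gained at ZT24), chr1:1860968-1861267: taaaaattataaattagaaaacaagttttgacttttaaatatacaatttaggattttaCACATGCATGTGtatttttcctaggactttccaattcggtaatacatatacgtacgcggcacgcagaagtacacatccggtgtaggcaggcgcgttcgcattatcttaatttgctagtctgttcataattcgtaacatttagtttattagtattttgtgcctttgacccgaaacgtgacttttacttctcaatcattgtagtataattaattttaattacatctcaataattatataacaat
GA2OX1 proximal (lost at ZT24), chr1:29513324-29513623: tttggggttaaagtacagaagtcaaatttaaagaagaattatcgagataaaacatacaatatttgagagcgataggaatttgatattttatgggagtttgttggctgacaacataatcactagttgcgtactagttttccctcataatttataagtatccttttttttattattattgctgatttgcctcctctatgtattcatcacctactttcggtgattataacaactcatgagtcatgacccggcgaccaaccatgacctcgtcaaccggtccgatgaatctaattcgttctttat

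The AHL20 window held 2 TCP-like and 2 PIF-like words within 300 bp, the GLX2-4 window 2 adjoining PIF-like words, and the IVD window 4 AT-rich words. None of the words was found in the AT3G17580, AT2G40460 and both GA2OX1 windows, which says only that these letters are not there. Over all 27443 sites, the 300 bp around the summit held a TCP-like word at 34.1%, a PIF-like word at 33.6% and an AT-rich word at 50.3%.

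The 6 lists held between 21070 and 24827 peaks on the nuclear chromosomes, covered 9.72 to 12.7 Mb each and had median peak widths of 342.5 to 390 bp. The median fold, the ratio of ChIP pileup (fragments over the summit) to local background that the peak caller of the authors wrote, was between 2.59 and 2.90. Depth showed only in the lowest background of a list, which was 15.1, 14.5 and 12.1 fragments per base in the ZT24 lists and 15.0, 15.8 and 12.3 in the ZT4 lists. The median pileup per peak was 58, 56 and 47 in the ZT24 lists and 58, 55 and 47 in the ZT4 lists, so the third replicate of each time was the shallowest by both measures.

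The 2 times differed little in how many peaks there were and where they lay. ZT24 lists held 23015 ± 1882 peaks and ZT4 lists 23220 ± 1043 (SD, n = 3 each; two-sided exact permutation test, p = 1; with 3 lists against 3 no p can go below 0.1). Promoter-TSS regions, which span 1000 bp before and 100 bp after a transcription start (TSS), held 58.9% ± 0.320 of ZT24 peaks and 58.5% ± 0.749 of ZT4 peaks (exact permutation p = 0.5, adjusted over 5 region classes 0.833). Regions at transcript ends (TTS) held 14.8% ± 0.197 at ZT24 and 15.2% ± 0.0990 at ZT4, and the 3 ZT24 lists all lay below the 3 ZT4 lists (exact permutation p = 0.1, adjusted 0.5). Exons, introns and intergenic sequence gave adjusted p-values of 0.833, 0.9 and 0.9 in the same exact tests.

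Motif words were equally alike in their shares of peaks. PIF-like words lay near the summit of 35.5% ± 0.577 of ZT24 peaks and 34.7% ± 0.333 of ZT4 peaks (SD, n = 3 each; two-sided exact permutation test, p = 0.2, adjusted over 3 motifs 0.6). TCP-like words were found at 35.4% ± 0.544 of ZT24 peaks and 35.3% ± 0.390 of ZT4 peaks, and AT-rich words at 51.7% ± 1.76 and 52.2% ± 0.981 (adjusted exact p = 0.8 for both). No difference in peak number, region or motif could pass 0.05 with this number of lists.

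Binding was present at most loci at both times. Of the 27443 sites, 14802 (53.9%) had a peak in all 6 lists, while 1819 had a peak in a single ZT24 list and no other and 1939 in a single ZT4 list and no other. Lists of the same time shared 74.9% to 80.3% of the sites present in either list of a pair, over 6 pairs, and lists of different times shared 72.6% to 78.7%, over 9 pairs, so the ranges overlapped. The 194 gained sites were 0.707% of all sites and the 262 lost sites 0.955%. These shares describe the lists and were not tested. They depend on the number of lists, since leaving out any single list gave 249 to 582 gained and 320 to 571 lost sites, and on the peak threshold, since 22 of the 194 and 32 of the 262 stayed gained or lost among peaks with a −log10 q of 5 or more.

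**Figure D1:**
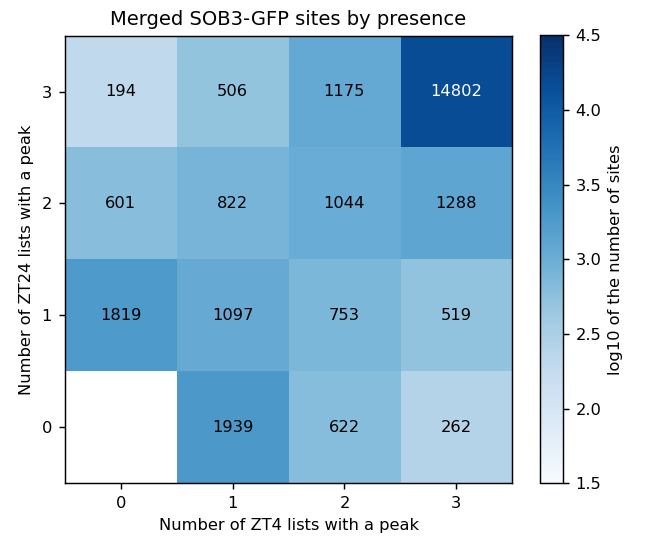
Number of merged sites by how many ZT24 lists (vertical axis) and how many ZT4 lists (horizontal axis) held a peak there, with colour giving the log10 of the number. The upper right cell holds the 14802 sites in all 6 lists, and the corners for gained and lost sites hold 194 and 262.

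Gained and lost sites were mostly weak. Peak strength is given as the fold percentile, the place of the peak within its own list (0 the weakest, 100 the strongest). The mean percentile over the lists that held the site had a median of 23.2 at gained sites (range 4.12 to 70.5) and of 23.6 at lost sites (3.61 to 64.5), and 4 gained and 10 lost sites lay above 50. Median width was 316.5 bp at gained and 325 bp at lost sites, against 295 bp at the 1575 sites with a peak in 3 lists spread over both times and 662 bp at sites in all 6 lists, whose merged extent draws on more peaks. A peak of the other time lay within 500 bp of 68 gained sites (35.1%) and 98 lost sites (37.4%).

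Promoter-TSS regions held 93 gained sites (47.9%) and 119 lost sites (45.4%), against 58.7% of all sites and 58.8% of the 1575 sites in 3 lists of both times. Transcript ends held 45 gained (23.2%) and 68 lost sites (26%), against 15.7% of all sites and 15.7% of those 1575. Exons held 20 gained sites (10.3%) and 11 lost sites (4.2%), against 4.77% of all sites and 5.33% of the 1575. Intergenic sequence held 22 gained (11.3%) and 51 lost sites (19.5%), against 16.9% of all sites and 15.2% of the 1575. An AT-rich word was found at 87 gained sites (44.8%) and 128 lost sites (48.9%), a TCP-like word at 62 (32.0%) and 75 (28.6%), and a PIF-like word at 65 (33.5%) and 77 (29.4%), all given as counts with no test. In the same order of words, the shares were 50.3%, 34.1% and 33.6% of all sites, and 44.2%, 33.3% and 29.6% of the 1575.

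The strongest gained site lay at chr3:20179944-20180376, 22 bp upstream of the TSS of AT3G54510, annotated as an early-responsive to dehydration stress (ERD4) family protein. Its fold percentiles in the 3 ZT24 lists were 76.7, 77.3 and 57.6, from pileups of 80, 78 and 50 fragments, and no ZT9 list held it. This gene is the neighbour of LNK2, a clock coactivator. The LNK2 site at chr3:20178833-20179600 lay in the promoter-TSS regions of both genes and was present in all 6 lists. The ZT4 peak nearest to the gained site lay 378 bp away. The LNK2 site had pileups of 149, 129 and 94 at ZT24 and of 109, 77 and 91 at ZT4, where the lowest ZT24 value lay below the highest ZT4 value.

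The next gained sites lay at MO1, a monooxygenase (fold percentiles 60.03, 63.98 and 59.48 in the ZT24 lists), at AT3G16800, a protein phosphatase 2C (44.3, 53.3 and 69.9), and at AT4G38790, an endoplasmic reticulum lumen receptor (45.2, 47.1 and 59.2). They were followed by AT3G12850, annotated as COP9-related (49.1, 30.4 and 68.4), and by GLX2-4, a glyoxalase, 186 bp upstream of its TSS (52.4, 50.9 and 43.7). The list of 8 closes with AT5G52050, a MATE efflux carrier (44.2, 40.7 and 58.5), and AT3G16175, a thioesterase (36.5, 57.1 and 46.9). AT3G16175 had 2 sites, of which the other was lost, so this locus changed in both directions. Of the 8 gained sites, 4 had no peak in any ZT9 list.

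The strongest lost site lay at chr3:7984552-7984958, 69 bp downstream of the TSS of AT3G22540, a gene with a DUF1677 domain of unknown function. Its fold percentiles in the 3 ZT4 lists were 63.5, 74.7 and 55.4, from pileups of 60, 63 and 44. ATE2F2, a member of the E2F family of cell cycle transcription factors, had a lost site 1232 bp upstream with percentiles of 60.06, 53.51 and 60.02 in the ZT4 lists, and all 3 ZT9 lists held it. The other lost sites among the strongest 8 lay at AT5G46825 (60.2, 65.5 and 53.2), AT5G53410 (55.6, 61.4 and 52.4), AT3G46370, a leucine-rich repeat kinase (43.3, 64.1 and 59.2), AT3G15909 (56.0, 53.6 and 49.0), AT4G34550, an F-box protein (55.5, 57.0 and 44.7), and AT5G24155 (60.2, 51.3 and 44.8).

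**Figure D2:**
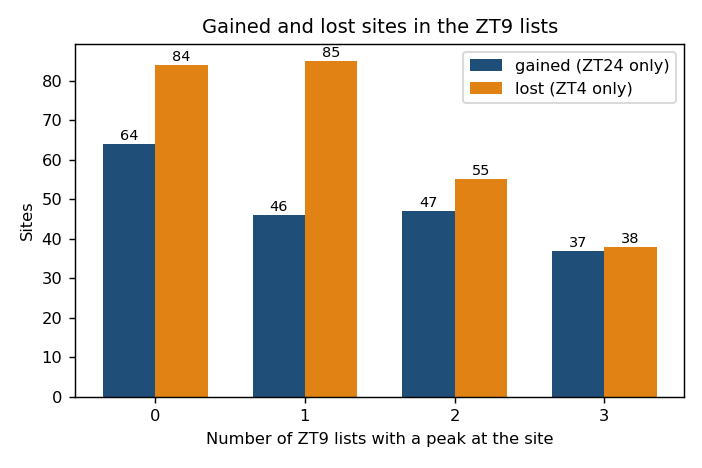
Number of gained sites (left bars) and lost sites (right bars) by how many of the 3 ZT9 lists held a peak there. No ZT9 list held 64 gained and 84 lost sites, and all 3 held 37 gained and 38 lost sites.

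At the sites in all 6 lists, strength was compared first by ranks within each list, and no site passed. With limma on normal scores of the fold rank, 0 of 14802 sites (0%) had an adjusted p under 0.05, the lowest being 0.0627, and 604 had an adjusted p under 0.1. At an unadjusted p under 0.05 there were 3035 sites, 1457 higher and 1578 lower at ZT24. With the pileup rank, 0 sites (0%) passed as well, with a lowest adjusted p of 0.158 and 1178 sites at an unadjusted p under 0.05 (507 higher, 671 lower). The log2 of the fold, centred on the median of the list, was an alternative to ranks and gave 621 sites higher at ZT24 (4.2% of those tested) and 629 lower (4.25%), in all 1250 (8.44%; limma, adjusted p under 0.05). The log2 of the pileup gave 18 sites higher (0.122%) and 35 lower (0.236%), in all 53 (0.358%). Leaving out any single list lowered these counts by more than 1.5 times, to 546 to 706 sites on fold and 12 to 34 on pileup, with the 12 left without ZT4 replicate 2. All sites named from here on were called on log2 values only and were chosen after their values were seen.

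Fold and pileup differ in that fold also holds the local background, and the lists of a time share 1 input if each was called against the input of its own time. At 920 of the 1250 sites called on fold (73.6%), the log2 difference in background was larger than that in pileup, against 9055 of all 14802 sites tested (61.2%). At sites higher in fold, the median log2 difference, ZT24 minus ZT4, was 0.50 in fold, 0.16 in pileup and -0.39 in background, background was lower at 609 of the 621, and pileup was higher at 87.6% of them. At sites lower in fold the medians were -0.51, -0.17 and 0.35, with background higher at 608 of the 629 and pileup lower at 89.7%. Over both directions, pileup had the sign of fold at 1108 of the 1250. Among all sites tested, background was lower at 52.6% and higher at 47.4%, and pileup was higher at 49.6% and lower at 50.4%. Since fold is made of pileup and background, sites called on fold differ in them by construction. Across the sites tested, the background of lists correlated at Spearman's rho of 0.739 to 0.760 within a time and of 0.201 to 0.222 between times, while pileup gave 0.879 to 0.910 within and 0.841 to 0.896 between times. These are descriptions over sites that share lists. Where a site held several peaks in a list, its pileup and background can come from different peaks.

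**Figure D3:**
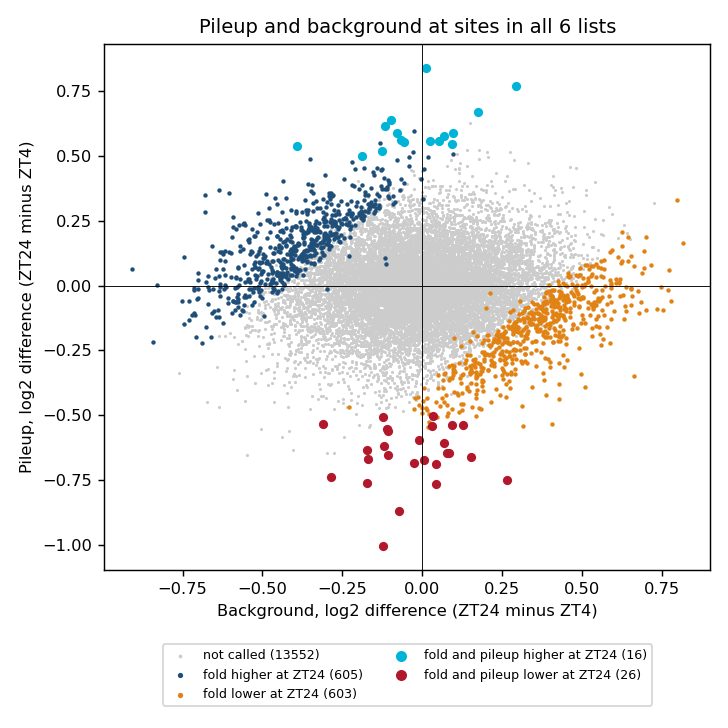
Log2 difference (ZT24 minus ZT4) in local background (horizontal axis) and in pileup (vertical axis) at each of the 14802 sites in all 6 lists, coloured by the calls on log2 values. The 11 sites called on pileup only are drawn as not called. The 16 and 26 sites called in both fold and pileup lie at the top and bottom, and most sites called on fold alone lie off to the sides, where background differs.

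Both measures called 42 sites, 16 higher and 26 lower at ZT24, none with opposite directions, and 11 further sites were called on pileup only. At all 42 the pileup difference was larger than the background difference, against 5747 of all 14802 sites tested. Calling these sites on pileup favours this by construction, so it only describes them. On ranks, the adjusted p of these 42 sites was between 0.0627 and 0.192 for fold and between 0.158 and 0.410 for pileup (limma). Of the 16 higher sites 6 lay in promoter-TSS regions and 7 in intergenic sequence, and of the 26 lower sites 9 and 9, where these classes held 60.9% and 17.2% of the sites tested. AT-rich words were found at 9 of the 16 and 18 of the 26, PIF-like words at 7 and 4, and TCP-like words at 4 and 3, against 55.1%, 37.7% and 37.5% of the sites tested. The values of the 3 ZT24 lists all lay above those of the 3 ZT4 lists in pileup at 1.15% of the sites tested and all below at 1.25%, at 7.01% and 7.78% with pileups centred on the median of the list, and at 13.3% and 14.4% in fold percentile. Sites called on these same values tend to separate by construction, so the separations given below describe them only.

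AT3G17580, annotated as an SsrA-binding protein, had the largest pileup difference among the higher sites, 184 bp upstream of its TSS (sequence above). The pileups were 99, 93 and 75 fragments in the ZT24 lists, against 52, 48 and 47 in the ZT4 lists, and the fold percentiles 89.5, 88.8 and 88.8, against 49.0, 46.4 and 59.4. The groups did not overlap. The log2 difference was 0.80 ± 0.12 in fold (SE; limma, adjusted p = 0.00249) and 0.84 ± 0.11 in pileup (adjusted p = 0.00103), with a background difference of 0.01. Over the settings tried, the adjusted p ranged from 0.000567 to 0.200 for fold and from 0.000300 to 0.566 for pileup.

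IVD encodes isovaleryl-CoA dehydrogenase, an enzyme of leucine breakdown. At its promoter site, 211 bp upstream, pileups were 94, 93 and 75 in the ZT24 lists, against 69, 58 and 47 in the ZT4 lists, with no overlap. The log2 difference was 0.64 ± 0.12 in fold and 0.59 ± 0.11 in pileup (SE; limma, adjusted p = 0.00446 and 0.0111). A site 5676 bp upstream of ERD5, which encodes proline dehydrogenase, another amino acid catabolic enzyme, had pileups of 86, 82 and 73 at ZT24, against 67, 52 and 47 at ZT4. Its log2 difference was 0.89 in fold (adjusted p = 0.000892) and 0.54 in pileup (adjusted p = 0.0287), and background was lower at ZT24 by a log2 difference of -0.39.

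AHL20, a gene of the same family as SOB3, had the only site called higher in both measures among the genes of the lists chosen for this comparison. The site lay 3460 bp downstream of the TSS and held 112, 96 and 75 fragments in the ZT24 lists, against 74, 60 and 60 in the ZT4 lists. All ZT24 values were above all ZT4 values, and the log2 difference was 0.62 ± 0.12 in fold and 0.52 ± 0.11 in pileup (SE; limma, adjusted p = 0.00583 and 0.0346). A weak site 4452 bp downstream was gained, with percentiles of 15.1, 14.8 and 2.6 in the ZT24 lists. The site at the TSS itself was not called (log2 fold difference 0.11, adjusted p = 0.730).

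Further sites higher in both measures lay at AT5G27920, an F-box protein, with pileups of 109, 90 and 79 at ZT24, against 66, 58 and 55 at ZT4, and at AT3G49950, a GRAS family transcription factor, with 103, 97 and 79, against 70, 48 and 57. AT4G16770 had 80, 65 and 51 fragments at ZT24, against 37, 37 and 38 at ZT4, and no peak in any ZT9 list. In these 3 cases the groups did not overlap. The remaining sites lay at AT2G41760, AT2G34080, AT3G55646, AT5G06990, AT2G02455, AT4G19700, AT1G73480, AT4G21515 and AT2G26720.

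**Figure D4:**
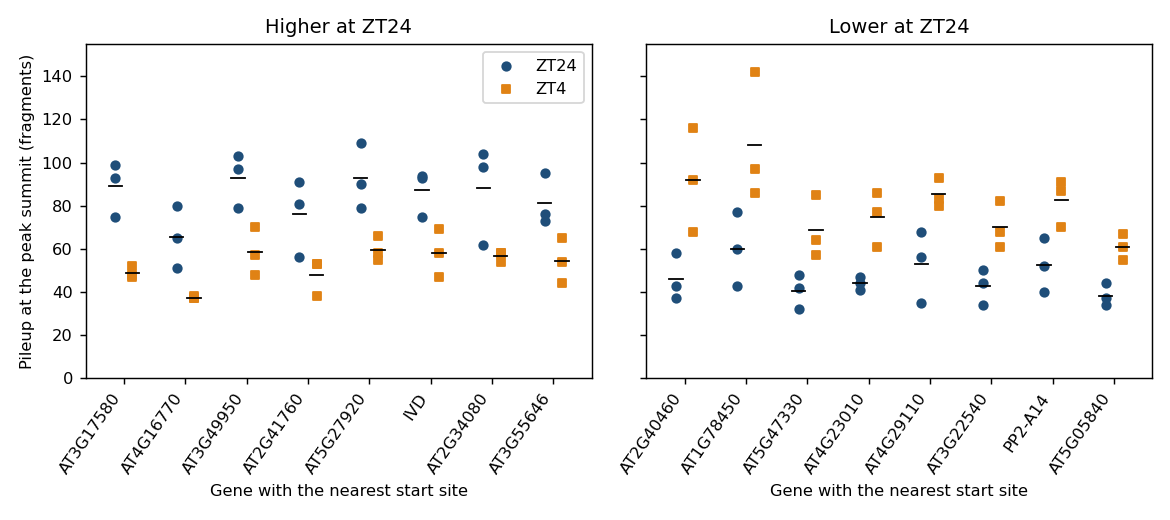
Pileup in fragments at the summit in each of the 3 ZT24 lists (left) and 3 ZT4 lists (right) for 8 sites higher and 8 sites lower at ZT24 in both measures, with a line at the mean. At AT3G17580 the ZT24 lists sit between 75 and 99 and the ZT4 lists between 47 and 52, and at AT2G40460 the ZT24 lists sit between 37 and 58 and the ZT4 lists between 68 and 116.

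Among the 26 lower sites, AT2G40460, a transporter of the major facilitator superfamily, had the largest pileup difference, 102 bp upstream of its TSS. The ZT24 lists held 58, 43 and 37 fragments, against 116, 92 and 68 in the ZT4 lists. The groups did not overlap, and the log2 difference was -0.88 ± 0.14 in fold and -1.004 ± 0.12 in pileup (SE; limma, adjusted p = 0.00249 and 0.000589). Over the settings tried the adjusted p ranged from 0.00119 to 0.204 for fold and from 0.000256 to 0.566 for pileup.

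AT4G29110, with the largest fold difference, had 68, 56 and 35 fragments at its TSS in the ZT24 lists, against 93, 83 and 80 in the ZT4 lists. Its log2 difference was -1.0004 ± 0.12 in fold and -0.75 ± 0.13 in pileup (SE; limma, adjusted p = 0.000535 and 0.00859), with background higher at ZT24 by 0.26. AT4G23010, a UDP-galactose transporter, had 47, 44 and 41 fragments at ZT24, against 86, 77 and 61 at ZT4, and AT5G47330 had 42, 48 and 32, against 85, 64 and 57. Neither overlapped between times.

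IAA9, a repressor of auxin signalling, was lower at a site 3426 bp downstream of its TSS, with 54, 56 and 38 fragments in the ZT24 lists, against 84, 76 and 62 in the ZT4 lists. Its log2 difference was -0.67 in fold and -0.61 in pileup (limma, adjusted p = 0.00433 and 0.0104). SWEET17, a vacuolar fructose transporter, had 61, 49 and 40 fragments at ZT24, against 88, 78 and 65 at ZT4, and AMT1;2, an ammonium transporter, had 75, 64 and 54, against 119, 100 and 68. OFP1, an OVATE family protein (not in fold with all 9 lists fitted), PP2-A14, OZF2, a zinc finger protein, AILP1 and SSN2 were lower as well, besides AT1G78450, AT3G22540, AT5G05840, AT5G44575, AT5G40790, AT2G18890, AT1G63580, AT2G15020, AT1G23205, AT5G22490, AT5G55620, AT1G70420, AT1G56630 and GA2OX1. XTH7, which encodes a xyloglucan-modifying cell wall enzyme, was lower in pileup only, with 66, 55 and 43 fragments at ZT24, against 88, 81 and 82 at ZT4 (log2 difference -0.65, adjusted p = 0.0104).

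GA2OX1, an enzyme that inactivates gibberellin, a hormone that promotes hypocotyl elongation, was the locus of the lists with the most sites in one direction. Of its 3 sites, the distal one, 1265 bp upstream, held 80, 68 and 48 fragments in the ZT24 lists, against 112, 98 and 92 in the ZT4 lists, and percentiles of 78.0, 69.2 and 54.6, against 93.7, 95.2 and 95.4. The groups did not overlap, and the log2 difference was -0.81 ± 0.13 in fold and -0.66 ± 0.11 in pileup (SE; limma, adjusted p = 0.00249 and 0.00859). Over the settings tried the adjusted p ranged from 0.000588 to 0.200 for fold and from 0.00340 to 0.620 for pileup.

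The proximal GA2OX1 site, 375 bp upstream of the TSS, was lost, with pileups of 49, 51 and 48 and percentiles of 9.29, 12.6 and 30.1 in the ZT4 lists and no peak in any ZT24 or ZT9 list. A site 1707 bp downstream was lower in fold (log2 difference -0.55, limma adjusted p = 0.0156), while its pileups of 51, 55 and 39 at ZT24, against 67, 71 and 48 at ZT4, overlapped (log2 difference -0.37, adjusted p = 0.215). The site next to the distal one, nearest to AT1G78450, held 77, 60 and 43 fragments at ZT24, against 142, 97 and 86 at ZT4 (log2 difference in pileup -0.87 ± 0.13 SE, adjusted p = 0.00220).

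AT3G22540 had 5 sites, of which none was higher at ZT24. One was the lost site described above. A site 1487 bp upstream had 50, 44 and 34 fragments in the ZT24 lists, against 82, 68 and 61 in the ZT4 lists (log2 difference -0.47 in fold and -0.74 in pileup, limma adjusted p = 0.0224 and 0.00220). A site 661 bp upstream was lower in fold (-0.54, adjusted p = 0.0124), and the sites 2070 bp downstream and 4306 bp upstream were not called. Over all loci, 1622 had a site gained, lost or called on fold, and 77 of them had 2 or more such sites. At 21 of the 77 all were higher or gained, at 35 all were lower or lost, and at 21 they were mixed. These sites were 621 higher, 194 gained, 629 lower and 262 lost in all. Whether sites of a locus change together was not tested.

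**Figure D5:**
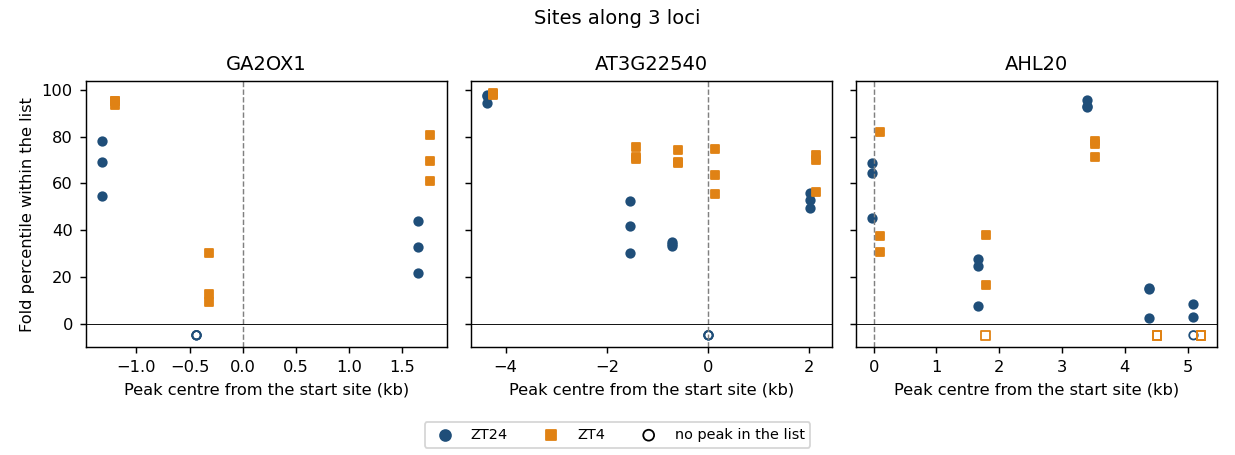
Fold percentile within each list (vertical axis) at the sites along GA2OX1, AT3G22540 and AHL20, by distance of the peak centre from the TSS in kb, with ZT24 lists as circles and ZT4 lists as squares, set slightly apart. Open symbols below 0 stand for lists with no peak, as for the ZT24 lists at the proximal GA2OX1 site 375 bp upstream.

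Among 266 genes in 14 lists of growth, hormone, light, clock and related pathways, 386 sites were tested, of which 20 were higher and 24 lower in log2 fold. This was 11.4% of these sites, against 8.44% of all sites. The lists were chosen with earlier results of these data known, so the 2 shares only describe the lists and were not compared by a test. On fold ranks, 89 of the 386 had an unadjusted p under 0.05 (limma), against 3035 of all 14802. On pileup 1 was higher (AHL20) and 1 lower (GA2OX1), and the median log2 pileup difference was 0.01, against 0.00 over all sites. The lists also had 4 gained sites, at TCP22, AHL20, LHCB4.1 and GA20OX2, and 4 lost sites, at GA2OX1, BBX31, YUC8 and RBCS1B. The calls on fold described next stand beside pileups that for the most part hardly differed.

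Of 42 sites at brassinosteroid genes, 4 were higher and 3 lower in fold, in all 16.7%, against 8.44% of all sites tested. DWF4, a hydroxylase of brassinosteroid synthesis, had a promoter site 190 bp upstream with pileups of 87, 77 and 66 in the ZT24 lists, against 77, 66 and 55 in the ZT4 lists. These overlapped, while the fold percentiles of 84.7, 80.6 and 83.1, against 58.3, 43.0 and 41.0, did not. The log2 difference was 0.65 in fold (limma, adjusted p = 0.00446), 0.21 in pileup (adjusted p = 0.531) and -0.47 in background. A DWF4 site 2216 bp upstream was higher in fold (0.53) and one 4656 bp upstream lower (-0.46), with pileup differences of 0.04 and 0.10. DET2, a reductase of the same pathway, was higher (0.50), BIN2, a kinase that represses brassinosteroid signalling, was lower (-0.42), and ROT3, a cytochrome P450, had 1 site in each direction.

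Of 73 sites at auxin genes, 2 were higher and 7 lower in fold, in all 12.3%, against 8.44% of all sites tested. PIN4 and NPY1, an efflux carrier and a protein of the same transport pathway, were higher. Those lower included GH3.5, which conjugates auxin, the auxin response factors ARF7 and ARF8, and the biosynthesis genes YUC2, YUC4 and YUC6. At the ARF7 promoter, pileups were 61, 60 and 51 in the ZT24 lists, against 63, 61 and 56 in the ZT4 lists, which overlap. The log2 difference there was -0.70 in fold (limma, adjusted p = 0.00504), -0.08 in pileup and 0.63 in background. The lost site of YUC8, 6555 bp upstream, had percentiles of 22.1, 33.9 and 47.3 in the ZT4 lists.

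Of 23 sites at the listed cell wall loosening genes, 3 were higher in fold, at the xyloglucan-modifying enzymes XTH4, XTR7 and TCH4, and 1 was lower, at the expansin EXPA8. Such calls made 17.4% of the 23 sites, and 11.1% of the 27 clock sites below, against 8.44% of all sites tested. XTH7, lower in pileup only, was not in the lists. XTR7 had pileups of 114, 107 and 73 in the ZT24 lists, against 89, 78 and 76 in the ZT4 lists, and a log2 difference of 0.71 in fold (limma, adjusted p = 0.00433) and 0.24 in pileup (adjusted p = 0.476). Of 27 sites at clock genes, 1 was higher (LNK2, log2 fold difference 0.80 ± 0.14 SE, limma adjusted p = 0.00362, pileup 0.40, adjusted p = 0.187) and 2 lower: LUX, of the evening complex, and RVE7, a MYB-like factor. At LUX the fold difference of -0.47 went with a pileup difference of 0.00 and a background difference of 0.49.

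Of 30 sites at light signalling genes, PHOT2, a blue light receptor, was higher in fold, and HY5, a bZIP factor of light responses, and UVR8, the UV-B receptor, were lower. Such calls made 10% of the 30 sites, against 8.44% of all sites tested. Of 25 sites at PIF and atypical HLH genes, 0 were higher and 1 lower in fold and 0 were called on pileup (limma on log2 values, adjusted p under 0.05), and 4 of the 25 had an unadjusted p under 0.05 on fold ranks and 1 on pileup ranks, against 20.5% and 7.96% of all sites tested. The lower site was at PIF7, with 57, 52 and 34 fragments at ZT24, against 78, 61 and 55 at ZT4, which overlap only narrowly (log2 difference -0.48 in fold, adjusted p = 0.0255, and -0.47 in pileup, adjusted p = 0.0741). Of 31 sites at AHL genes, 3 were higher (AHL20, ESC and AHL17) and AHL12 was lower in fold, in all 12.9%, against 8.44% of all sites tested.

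Of 34 sites at the listed gibberellin genes, 1 was higher, at RGL1, a DELLA repressor, and the 2 lower were those of GA2OX1. Such calls made 8.82% of the 34 sites, against 8.44% of all sites tested, which is also the share to set the next lists against. GA20OX3, which was not in the lists, had 1 gained site and 1 higher in fold among its 5 sites, and 0 lower or lost. Of 32 sites at TCP genes, TCP17 was higher and TCP10 and TCP24 were lower (in all 9.4% of the 32). Of 20 sites at photosynthesis genes, 2 were higher (10%), at the antenna protein genes LHCB2.2 and LHCB4.1, and none was lower. Of 33 sites at flowering time genes, TEM1 was higher, and SMZ and 2 sites of SPL9 were lower (in all 12.1% of the 33). Of 11 sites at cold response genes, CBF2 was higher in fold by 0.48 with a pileup difference of -0.01 (9.09% of the 11). The 6 sites at starch and sugar genes had no call on fold or pileup, and 0 of them an unadjusted p under 0.05 on ranks. At some sites named for these lists pileup went against fold in most settings, with no call on pileup. At YUC2 it was higher at ZT24 in 23 of 23 settings, and at BIN2 and RVE7 in 22 of 24 each. At TCP24 it was so in 19 of 21 and at YUC6 in 16 of 21, while all of these were lower in fold. At AHL17, higher in fold, pileup was higher in 4 of 24. Over all sites called on fold, pileup had the sign of fold at 1108 of 1250.

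A gene was taken as SOB3-bound at a time when a peak lay nearer to its TSS than to any other in at least 2 of the 3 lists. By this rule 14288 genes were bound at ZT24 and 14206 at ZT4, of which 13030 were bound at both, 84.3% of the 15464 bound at either. At ZT24 only there were 1258 genes and at ZT4 only 1176, counts that ranged from 546 to 2563 and from 526 to 2513 when any single list was left out. The number of genes per list was 14231 ± 934 at ZT24 and 14209 ± 843 at ZT4 (SD, n = 3 each; two-sided exact permutation test, p = 1).

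Under the strictest contrast, 100 genes were bound in all 3 ZT24 lists and no ZT4 list (0.564% of the 17720 genes bound in any list), and 110 in all 3 ZT4 lists and no ZT24 list (0.621%). Of these, 18 and 17 lay next to a site that also had a peak at the other time, 14 and 13 of them in all 6 lists, since a shift of the peak centre moved the nearest TSS to another gene. PRR7, a clock repressor, was such a case. Its site at chr5:641896-642602 lay between PRR7 and RHL2 and was present in all 6 lists, with 59, 65 and 53 fragments in the ZT24 lists, against 57, 57 and 50 in the ZT4 lists. These overlapped, the log2 fold difference was 0.31 ± 0.13 (SE; limma, adjusted p = 0.157), and the nearest TSS was that of RHL2 in the ZT24 lists and of PRR7 in the ZT4 lists. The other listed gene in this contrast was RBCS1B, a Rubisco small subunit gene, lost 36 bp upstream of its TSS with percentiles of 40.3, 39.0 and 71.3 in the ZT4 lists.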

How the data were processed

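SOB3-GFP ChIP-seq peak lists of 3 ZT24 and 3 ZT4 samples were used, grouped by the sample labels, and 3 ZT9 lists served as background. The members and gene lists were chosen with earlier results of these data known. The authors mapped reads to TAIR10 with Bowtie, kept unique reads and called peaks with MACS2 in each replicate against input, without pooling, so repeats and near-identical gene copies are underrepresented. Which input served which list is not given in the sources used here beyond that it was the respective one, so lists of a time probably share 1 input and their background is then not replicated. Tool versions are not given in the sources used here.

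The deposited fold enrichment (a ratio of pileup to background), −log10 p and −log10 q and the summit offset are relative to the list they stand in, and the deposited score column was not used. MACS2 computes the ratio as (pileup + 1) / (background + 1) and p from a Poisson distribution, and both were solved for the pileup, which came out whole within 0.001 for 100% of peaks. The lowest −log10 q per list was 1.30 to 1.33, next to the 1.30 of a q of 0.05. Totals of reads per list were not used here, so depth is known only from the lowest background (12.1 to 15.8).

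Peaks were placed by their centre with RefSeq TAIR10.1 (27444 coding genes), as promoter-TSS (1000 bp upstream to 100 bp downstream), TTS (100 bp upstream to 1000 bp downstream), exon, intron or intergenic, in this order. Peaks of the chloroplast and mitochondrion were left out. Motif words were searched in the 300 bp around the summit. Single values per list were compared by two-sided exact permutation tests over 20 labelled splits, with Benjamini-Hochberg adjustment. At sites in all 6 lists, normal scores of the rank within the list were compared with limma 3.58.1 (R 4.3.3, Benjamini-Hochberg, 0.05). Fold and pileup of a site were each the highest value among its peaks in a list. Background was that of the peak with the highest fold, so at sites with several peaks in a list these values can come from different peaks. Computations in Python 3.11.15 (pandas 2.3.3, SciPy 1.17.1) were tested on simulated data.

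By rule, the text names the 8 gained and 8 lost sites with the highest mean fold percentile, up to 8 or 10 sites called on ranks in each direction, of which there were none, and any gained, lost or called site of a listed gene; sites called on log2 values were chosen after their values were seen. Alternatives were a −log10 q of at least 5 or 10, equal list lengths, merging by summits within 150 bp, each list left out, a replicate block, other presence rules, the rank of −log10 p, log2 values and a fit with all 9 lists. Ranks among the sites tested, and log2 values combined with other choices, were added after seeing the data. No read counts were analysed here, so p-values measure the spread between 3 biological replicates only. For fold, that spread leaves out the variation of the input, which the lists of a time probably share.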

Additional observations from a re-analysis of the deposited data

Results flagged for a closer look

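Peaks on the organelle sequences lie outside the comparison and have no control samples to set against them. The 6 lists held 89 chloroplast peaks, between 10 and 23 per list, whose fold had a median of 1.49 and a maximum of 1.92. They also held 48 mitochondrial peaks (0, 0 and 32 in the ZT24 lists, 6, 6 and 4 in the ZT4 lists), whose fold had a median of 1.45 and a maximum of 1.86.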

How the results depend on the processing

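At a −log10 q of 5 or more, the difference ZT24 minus ZT4 turned to 16.0 in peaks per list, 0.0385 percentage points in intergenic and -0.114 in TCP-like shares, fold ranks called 1 site and pileup ranks 2. At a −log10 q of 10 or more it turned to 302 peaks, 0.0271 points in intron and 0.114 in intergenic shares, with 108 gained and 99 lost sites, 8076 genes bound at ZT24, 7654 at ZT4, 6901 at both and 753 at ZT4 only, and fold ranks called 7 sites. Placing peaks by summit gave an intron difference of 0.00426. With 3 lists against 3, none of these differences could pass a test at 0.05. Merging by summits gave 308 gained sites and 35 fold-rank calls, and counting sites in at least 2 lists of a time and none of the other gave 795 gained and 884 lost sites. Of the 194 gained and 262 lost sites, 103 and 144 remained so at equal list lengths, 22 and 32 at a −log10 q of 5 or more, and 1 and 3 at 10 or more, where 174 and 238 had no peak left.

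Fold-rank calls numbered 90 with equal list lengths, 246 with all 9 lists in the fit, and 311 with ranks among the sites tested, which was added after seeing the data. Of these 311 sites 304 were also called on log2 values, all in the same direction. Log2 values gave 1250 calls on fold and 53 on pileup, and, in combinations added after seeing the data, 1312 and 63 with equal list lengths and 1158 and 62 at a −log10 q of 5 or more. Of the 42 sites called in both measures, 9 to 21 stayed so when any single list was left out.

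Leaving out any single list gave differences of -1111 to 768 in peaks per list, -0.0586 to 0.0503 points in intron, -0.428 to 0.0769 in intergenic, -0.0342 to 0.481 in TCP-like and -1.54 to 0.170 in AT-rich shares. It gave 249 to 582 gained and 320 to 571 lost sites, 546 to 2563 genes bound at ZT24 only and 526 to 2513 at ZT4 only, 0 to 1 calls on fold ranks and 0 on pileup ranks, and on log2 values, in combinations added after seeing the data, 636, 546 and 642 calls on fold and 31, 30 and 27 on pileup without ZT24 replicates 1, 2 and 3, and 706, 548 and 655 on fold and 32, 12 and 34 on pileup without ZT4 replicates 1, 2 and 3.

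Fold ranks at the sites tested showed no pairing by replicate number (correlations of same-numbered deviations -0.02, -0.03 and -0.01). Ranks within a list leave out its depth, which was lowest in the third replicate of each time. A replicate block left 0 calls on fold and on pileup ranks and gave 1110 and 35 calls on log2 values, with 25 of the 42 sites called in both. The cause of these movements was not tested. The 42 sites called in both measures kept their direction in fold and pileup under every setting in which they were found, except the OFP1 site, whose fold normal score turned to 0.03 higher at ZT24 with all 9 lists in the fit. Weak sites near the peak caller's threshold, the 3 lists per time and the unreplicated input limit these results.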
